A study of Mus musculus with 39 samples.

Results

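The endocannabinoid system was followed through 7 genes, the receptor gene *Cnr1* and the genes of 6 enzymes that make or degrade its ligands: *Dagla*, *Daglb*, *Mgll*, *Abhd6*, *Napepld* and *Faah*. They were selected by gene symbol, with earlier results of these data known, and each had 1 probe set, so that 7 of 25429 probe sets are described. Expression was measured with 39 whole-transcript arrays, 1 per mouse and region, in the hippocampus, amygdala, cortex and hypothalamus of experimentally naive male mice. Samples with the same genotype and replicate number were taken as 1 mouse, which the labels do not state. The PianpKO group (5 mice) carries a constitutive deletion of *Pianp*, obtained by breeding *Pianp* floxed mice, which descend from the Pianptm1a(KOMP)Wtsi line and an ACTFLPe deleter line, with the CMV-cre line B6.C-Tg(CMV-cre)1Cgn/J. The control group (5 mice) consists of *Pianp* floxed mice, labelled FL, so that both groups carry the floxed history and only PianpKO mice have undergone Cre recombination. Cre from this line acts in all tissues, and the deletion is therefore present in neurons and glia from early development. Both groups were adult, with a broad age range stated for the whole study and no age for single mice. The amygdala of control mouse 4 was not analysed here, which left 4 control amygdala samples. Values are log2 expression after normalization between arrays, and the levels of different genes are not set against each other, because each probe set has its own brightness.

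Endocannabinoids are lipids that neurons synthesize on demand. Most of them act backwards across the synapse: they are released by the postsynaptic cell, bind the cannabinoid receptor CB1 on the axon terminal and reduce transmitter release. CB1, the product of *Cnr1*, is a Gi/o-coupled receptor that is dense on the terminals of cholecystokinin interneurons and is also present on glutamatergic terminals, and it shares presynaptic effectors with the GABAB receptor, to which the Pianp protein binds. The ligand 2-arachidonoylglycerol (2-AG) is made by the diacylglycerol lipases encoded by *Dagla* and *Daglb*, and is hydrolysed by the monoacylglycerol lipase of *Mgll* and by the hydrolase of *Abhd6*. The ligand anandamide belongs to the N-acylethanolamines, which the phospholipase D of *Napepld* releases from their membrane precursors and the fatty acid amide hydrolase of *Faah* degrades.

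The genes lie on 5 chromosomes of the mouse genome GRCm38.p6. *Cnr1* spans chr4:33923171-33948831 and *Faah* chr4:115996668-116018837, *Daglb* spans chr5:143464484-143504442 and *Napepld* chr5:21662901-21701622, *Mgll* spans chr6:88724412-88828360, *Abhd6* chr14:8002888-8056773, and *Dagla* chr19:10245265-10304877. RefSeq promoter windows of 300 bases, 250 before and 50 after a transcript start, were at hand for 6 of the 7 genes, in 10 windows. *Dagla* had none. The 250 bases before the start are shown for 3 genes with different regional patterns, namely *Mgll*, whose level peaked in the cortex, *Napepld*, whose level peaked in the hippocampus, and *Abhd6*, which was nearly level outside the hypothalamus. These stretches lie outside the annotated span of their genes, at chr6:88724162-88724411 (plus strand), chr5:21701623-21701872 (minus strand) and chr14:8002638-8002887 (plus strand). Capitals mark matches, on either strand, to 5 motifs. They are the GC box with the letters GGGCGG, the CCAAT box, the TATA box with the letters TATAAA, an E-box with the letters CAGCTG, and the core TGACG of the cyclic AMP response element. A palindrome was counted once, and overlapping matches were all counted.
Mgll upstream: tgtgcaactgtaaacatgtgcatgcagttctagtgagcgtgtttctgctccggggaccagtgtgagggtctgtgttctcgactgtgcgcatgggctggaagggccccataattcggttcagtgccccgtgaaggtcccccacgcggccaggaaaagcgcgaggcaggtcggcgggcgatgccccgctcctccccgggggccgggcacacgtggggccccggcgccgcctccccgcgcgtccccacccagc
Napepld upstream: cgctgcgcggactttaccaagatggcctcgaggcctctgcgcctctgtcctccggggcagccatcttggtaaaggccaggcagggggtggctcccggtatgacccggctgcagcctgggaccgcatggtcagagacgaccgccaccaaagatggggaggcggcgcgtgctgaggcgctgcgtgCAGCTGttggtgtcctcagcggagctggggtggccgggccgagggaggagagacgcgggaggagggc
Abhd6 upstream: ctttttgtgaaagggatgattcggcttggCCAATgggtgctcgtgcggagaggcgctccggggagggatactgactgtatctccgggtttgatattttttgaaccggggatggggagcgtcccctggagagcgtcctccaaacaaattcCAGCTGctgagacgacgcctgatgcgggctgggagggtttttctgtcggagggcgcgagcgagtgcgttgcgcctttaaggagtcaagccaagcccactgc

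The upstream stretch of *Mgll* held no match to the 5 motifs, that of *Napepld* held 1 CAGCTG, and that of *Abhd6* held 1 CCAAT and 1 CAGCTG. In the whole windows, which include the 50 bases after the start, the first windows of *Mgll* and *Abhd6* each had 1 GGGCGG and that of *Napepld* had none. The first *Cnr1* window had 5 copies of GGGCGG, the *Faah* window had 2, and the *Daglb* window had 1 CAGCTG and no GGGCGG. None of the 10 windows held TATAAA. Of all 32851 promoter windows of this length, 35.7% held GGGCGG, 37.4% CCAAT, 13.6% TATAAA, 16.3% CAGCTG and 20.8% TGACG. The CG dinucleotide occurred 40 times in the first window of *Cnr1*, 32 times in that of *Mgll*, 28 times in that of *Napepld*, 24 times in that of *Abhd6*, 16 times in that of *Faah* and 11 times in that of *Daglb*, against a median of 7 over all windows. These counts describe the letters in the windows and say nothing about binding.

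The *Pianp* probe set followed the genotype labels: its level ran from 5.10 to 6.17 in PianpKO samples and from 7.08 to 8.16 in control samples. Punches were checked against regional markers. All 5 measured cortex markers were highest in the cortex, 4 of 5 hippocampus markers in the hippocampus, 5 of 8 hypothalamus markers in the hypothalamus and 3 of 5 amygdala markers in the amygdala, by the mean over all samples of a region. The other hypothalamus markers, *Pomc*, *Hcrt* and *Nr5a1*, were highest in the amygdala. The mean over all 8 was 5.79 in control and 6.34 in PianpKO amygdala, against 6.68 and 7.04 in the hypothalamus. Cortex and hippocampus group means lay between 4.22 and 4.66. In PianpKO amygdala 5 of the 8 were higher and 3 lower by sign, 0 at an unadjusted p under 0.05 (limma). The part of these markers in the amygdala results was not tested. Of the amygdala list, *Prkcd*, a kinase gene of the central amygdala that the thalamus also expresses, was at 10.2 in the hippocampus and 6.33 in the amygdala. Markers of striatal projection neurons averaged between 7.67 and 8.02 in PianpKO amygdala samples and between 8.26 and 9.02 in control amygdala samples, with 7 of 7 measured genes lower at unadjusted p under 0.05 (limma), against 8.07% of all probe sets in either direction, and 0 past the adjusted threshold. In the hypothalamus 7 of 7 were lower by sign, 4 of them at an unadjusted p under 0.05 (against 5.55% of all probe sets), in the hippocampus 7 of 7 were lower by sign and 0 at that p, and in the cortex 6 of 7 were higher by sign and 0 at that p (limma). Within-group correlations of the arrays lay between 0.989 and 0.996. In tissue punches, fewer cells of a type and less RNA per cell cannot be told apart.

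Most of the 7 genes were higher in the hippocampus and cortex than in the hypothalamus. Mean levels of the 7 genes over all samples lay between percentiles 81.4 and 88.2 of all probe sets. In control mice, the hippocampus differed from the hypothalamus in 7 of 7 genes, of which 6 were higher and only *Cnr1* was lower, where 14.9% of all probe sets passed the adjusted threshold of 0.05 (limma with the mouse as a random block). Leaving out each mouse gave 5 to 7 genes for this pair in control mice, and other settings gave 6 to 7. Median differences of the 7 genes were 0.77 for hippocampus minus hypothalamus and 0.38 for cortex minus hypothalamus, against 0.00 and 0.01 over all probe sets. In PianpKO mice, 5 of 7 genes differed between hippocampus and hypothalamus, all 5 of them higher in the hippocampus, against 12.5% of all probe sets, with a median difference of 0.72 for the 7 genes and -0.00 for all probe sets.

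**Figure D1:**
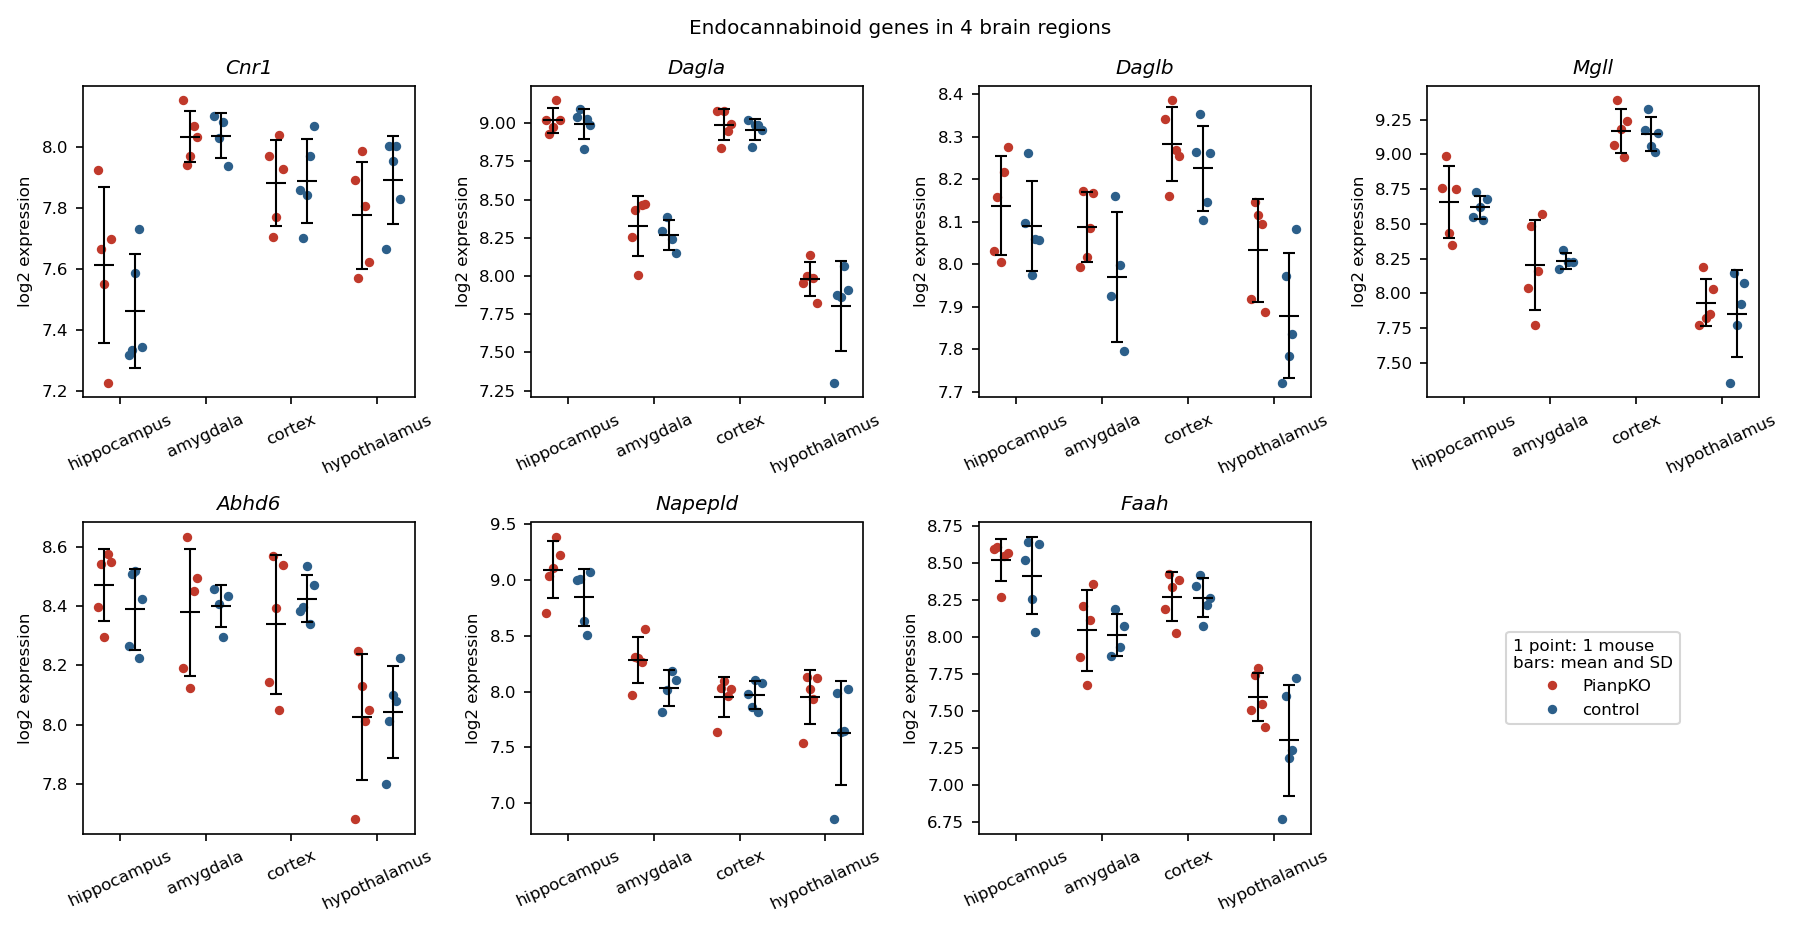
Log2 expression (y axis) of the 7 genes in the 4 regions (x axis), with 1 point per mouse, PianpKO left of control, and bars for mean and SD (n = 5, control amygdala n = 4). Napepld is highest in the hippocampus by mean, with 8.50 to 9.38 in all 10 samples, and PianpKO amygdala reaches 8.56. Mgll is at 8.98 to 9.39 in the cortex. The hypothalamus is the lowest region by mean in both genotypes for Dagla, Daglb, Mgll, Faah and Abhd6, and in control mice for Napepld.

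The receptor gene *Cnr1* was lowest in the hippocampus. Hippocampal samples stood at 7.92, 7.67, 7.55, 7.23 and 7.70 in PianpKO mice 1 to 5 and at 7.32, 7.33, 7.59, 7.73 and 7.34 in control mice 1 to 5. Amygdala samples stood at 8.15, 7.94, 7.97, 8.07 and 8.03 in PianpKO mice 1 to 5, and at 8.10, 8.03, 8.08 and 7.94 in control mice 1, 2, 3 and 5. All 10 hippocampal samples were below all 9 amygdala samples. The cortex ranged from 7.70 to 8.04 in PianpKO mice and from 7.70 to 8.07 in control mice, and the hypothalamus from 7.57 to 7.99 in PianpKO mice and from 7.67 to 8.0 in control mice. Hippocampus and amygdala differed by -0.42 ± 0.09 in PianpKO mice and by -0.58 ± 0.10 in control mice (estimate ± SE, limma, adjusted p = 0.00165 and 5.88e-05). In control mice the hippocampus was also lower than the cortex by a log2 difference of -0.43 (adjusted p = 0.00111) and than the hypothalamus by -0.43 (adjusted p = 0.00112, both limma). In PianpKO mice, these differences were -0.27 and -0.16 and did not pass the threshold (adjusted p = 0.0505 and 0.341, limma). The first of them passed it without PianpKO mouse 1 (-0.32, adjusted p = 0.0339), without PianpKO mouse 2 (-0.33, adjusted p = 0.0372) and in the fit without control mouse 4 (-0.27, adjusted p = 0.0462). At the same -0.27 it also passed without dim probe sets, with the mouse as a fixed term and with another variance prior (limma, adjusted p = 0.0242, 0.0489 and 0.0477). Cortex and hypothalamus did not differ beyond their spread, with a difference of 0.11 (95% interval -0.09 to 0.30) in PianpKO mice and -0.00 (-0.19 to 0.19) in control mice. Amygdala minus hypothalamus was 0.26 (0.07 to 0.45) in PianpKO mice and 0.15 (-0.05 to 0.36) in control mice, with adjusted p of 0.105 and 0.423 (limma); the PianpKO value reached 0.33 with an adjusted p of 0.0487 without PianpKO mouse 3. Markers of cholecystokinin interneurons (6 of 6 measured) averaged 7.08 to 7.70 over the hippocampal samples, 7.06 to 7.71 over the hypothalamic samples and 7.60 to 7.96 over the amygdala and cortex samples. Members of this list differed in pattern. Only *Vip* and *Reln* were lowest in the hippocampus by mean, while *Cck* itself was at 10.76 there, 10.68 in the amygdala, 11.03 in the cortex and 9.72 in the hypothalamus. Means of the 7 measured striatal projection neuron markers were 7.52 in PianpKO hippocampus and 7.89 in control hippocampus. They were 7.84 and 8.61 in PianpKO and control amygdala, 8.72 and 8.56 in the cortex, and 8.62 and 9.07 in the hypothalamus. The part of either list of markers in the *Cnr1* pattern was not tested.

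*Dagla*, the lipase gene for the main neuronal route to 2-AG, was high in the hippocampus and cortex, intermediate in the amygdala and low in the hypothalamus. Hippocampal samples stood at 9.02, 8.93, 8.97, 9.15 and 9.02 in PianpKO mice 1 to 5 and at 9.04, 9.09, 8.83, 9.03 and 8.99 in control mice 1 to 5. Amygdala samples stood at 8.26, 8.43, 8.01, 8.46 and 8.47 in PianpKO mice and at 8.29, 8.39, 8.24 and 8.15 in control mice 1, 2, 3 and 5. These ranges did not overlap, and the cortical samples, between 8.84 and 9.08 in PianpKO mice and between 8.84 and 9.02 in control mice, lay within the hippocampal range. Hypothalamic samples stood at 7.96, 8.0, 8.14, 7.99 and 7.82 in PianpKO mice and at 7.30, 7.88, 7.86, 8.07 and 7.91 in control mice, with control mouse 1 far below the rest. Hippocampus minus hypothalamus was 1.04 ± 0.09 in PianpKO mice and 1.19 ± 0.09 in control mice, a 2.05-fold and a 2.29-fold difference (limma, adjusted p = 1.77e-10 and 7.83e-12). Hippocampus and cortex differed by 0.03 (95% interval -0.16 to 0.22) in PianpKO mice and by 0.04 (-0.15 to 0.22) in control mice. The amygdala exceeded the hypothalamus by 0.34 in PianpKO mice and by 0.47 in control mice (limma, adjusted p = 0.0152 and 0.00124). The PianpKO call was lost without PianpKO mouse 1, 2, 4 or 5, with values of 0.35, 0.32, 0.31 and 0.27 (adjusted p = 0.0531, 0.0850, 0.107 and 0.207).

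*Daglb*, the lipase gene that is prominent in microglia and macrophages, was highest in the cortex by mean. Hippocampal values were 8.01 to 8.28 in PianpKO mice and 7.97 to 8.26 in control mice, and amygdala values 7.99 to 8.17 in PianpKO mice and 7.79 to 8.16 in control mice. Values lay between 8.16 and 8.39 in the cortex of PianpKO mice and between 8.11 and 8.35 in that of control mice, and between 7.89 and 8.15 in the hypothalamus of PianpKO mice and between 7.72 and 8.08 in that of control mice. Within each genotype, every cortical sample was above every hypothalamic sample, and the mean difference was 0.25 ± 0.07 in PianpKO mice and 0.35 ± 0.07 in control mice (limma, adjusted p = 0.00702 and 0.000185), although the call in PianpKO mice was lost without PianpKO mouse 1 (0.21, adjusted p = 0.0700). Amygdala minus cortex was -0.20 in PianpKO mice and -0.26 in control mice (limma, adjusted p = 0.0537 and 0.0151). The control call was lost without control mouse 1 (-0.24, adjusted p = 0.0819) or 5 (-0.19, adjusted p = 0.146), and the PianpKO difference was called without PianpKO mouse 2 (-0.25, adjusted p = 0.0328) and in the fits without control mouse 2 or 5 (adjusted p = 0.0442 and 0.0382). Hippocampus minus hypothalamus was 0.10 in PianpKO mice and 0.21 in control mice (limma, adjusted p = 0.431 and 0.0342). Without control mouse 1, 2, 3 or 4, the control value was 0.17, 0.19, 0.22 and 0.21, with adjusted p of 0.206, 0.0951, 0.0732 and 0.0917, and none of the 4 passed the threshold.

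*Mgll*, the gene of the enzyme that ends most 2-AG signalling, was highest in the cortex, followed by the hippocampus, the amygdala and the hypothalamus. Hippocampal samples lay between 8.35 and 8.99 in PianpKO mice and between 8.53 and 8.73 in control mice, and amygdala samples between 7.77 and 8.57 in PianpKO mice and between 8.18 and 8.31 in control mice. Cortical samples stood at 9.07, 9.39, 9.18, 8.98 and 9.24 in PianpKO mice 1 to 5 and at 9.18, 9.33, 9.06, 9.02 and 9.15 in control mice 1 to 5. Hypothalamic samples stood at 7.77, 8.19, 7.83, 7.85 and 8.03 in PianpKO mice and at 7.36, 8.15, 7.77, 7.92 and 8.08 in control mice. No hypothalamic sample came within the cortical range. Cortex minus hypothalamus was 1.24 ± 0.12 in PianpKO mice and 1.29 ± 0.12 in control mice, a 2.36-fold and a 2.45-fold difference (limma, adjusted p = 2.44e-10 and 7.75e-11). The amygdala was lower than the cortex by a log2 difference of -0.97 in PianpKO mice and -0.92 in control mice, and the hippocampus lower than the cortex by -0.51 in PianpKO mice and -0.53 in control mice (limma, adjusted p of 0.00154 or less in all 4). Hippocampus minus amygdala was 0.45 in PianpKO mice and 0.39 in control mice (limma, adjusted p = 0.00622 and 0.0308). The first call was lost without PianpKO mouse 1 (0.39, adjusted p = 0.0686), and the second without control mouse 1, 2, 3 or 5, with values of 0.39, 0.39, 0.39 and 0.37 and adjusted p of 0.0571, 0.0927, 0.0883 and 0.121. The lowest neighbours in the order, amygdala and hypothalamus, differed by 0.27 (95% interval 0.03 to 0.51) in PianpKO mice and by 0.38 (0.12 to 0.63) in control mice, with adjusted p of 0.201 and 0.0501 (limma). The control difference was called in the fits without PianpKO mouse 2 or 3 (0.38 in both, adjusted p = 0.0395 and 0.0353).

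*Abhd6*, a serine hydrolase gene whose product degrades a smaller share of 2-AG on the postsynaptic side, set the hypothalamus apart from the other regions. Hippocampal, amygdala and cortical samples lay between 8.05 and 8.63 in PianpKO mice and between 8.23 and 8.54 in control mice. Hypothalamic samples stood at 7.68, 8.25, 8.13, 8.01 and 8.05 in PianpKO mice 1 to 5 and at 7.80, 8.01, 8.10, 8.08 and 8.22 in control mice 1 to 5. The ranges overlapped in PianpKO mice and did not in control mice. Hippocampus minus hypothalamus was 0.45 ± 0.09 in PianpKO mice and 0.35 ± 0.09 in control mice, amygdala minus hypothalamus was 0.35 in both, and cortex minus hypothalamus was 0.31 in PianpKO mice and 0.38 in control mice. All 6 differences passed the threshold (limma, adjusted p between 0.00069 and 0.0192). Among the hippocampus, amygdala and cortex, the differences lay between -0.04 and 0.13, and none of the 6 passed it. Calls were lost for the amygdala without PianpKO mouse 1, 4 or 5 (0.32, 0.33 and 0.33, adjusted p = 0.0581, 0.0605 and 0.0973) and without control mouse 1 or 2 (0.27 and 0.34, adjusted p = 0.247 and 0.0909), for the cortex without PianpKO mouse 5 (0.27, adjusted p = 0.0867) and for the hippocampus without control mouse 2 (0.31, adjusted p = 0.0671).

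*Napepld* was highest in the hippocampus by mean, and the hippocampal and amygdala ranges overlapped. Hippocampal samples stood at 8.70, 9.03, 9.11, 9.38 and 9.22 in PianpKO mice 1 to 5 and at 9.00, 9.01, 8.63, 8.50 and 9.07 in control mice 1 to 5. Amygdala samples lay between 7.97 and 8.56 in PianpKO mice and between 7.81 and 8.19 in control mice. Cortical samples stood at 7.64, 8.03, 8.09, 7.96 and 8.02 in PianpKO mice and at 7.98, 7.86, 8.10, 7.82 and 8.08 in control mice. All 10 hippocampal samples were above all 10 cortical samples, and control mice 3 and 4 were the lowest of the hippocampal set. Hypothalamic samples lay between 7.54 and 8.13 in PianpKO mice and between 6.86 and 8.02 in control mice. Hippocampus minus cortex was 1.14 ± 0.14 in PianpKO mice and 0.88 ± 0.14 in control mice, a 2.20-fold and a 1.83-fold difference (limma, adjusted p = 2.12e-07 and 1.93e-05). The hippocampus exceeded the amygdala by 0.81 in PianpKO mice and 0.82 in control mice, and the hypothalamus by 1.14 in PianpKO mice and 1.21 in control mice (limma, adjusted p of 0.000152 or less in all 4). None of the differences among amygdala, cortex and hypothalamus passed the threshold, and they lay between -0.00 and 0.39. Of these, cortex minus hypothalamus in control mice was 0.34 (adjusted p = 0.0821), was called without control mouse 2 (0.45, adjusted p = 0.0425) and was 0.14 without control mouse 1 (adjusted p = 0.527), and amygdala minus cortex in PianpKO mice was called in the fit without control mouse 1 (0.33, adjusted p = 0.0464).

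*Faah*, the amidase gene of anandamide breakdown, was lowest in the hypothalamus and overlapped between hippocampus and cortex. Hippocampal samples stood at 8.60, 8.61, 8.27, 8.55 and 8.57 in PianpKO mice 1 to 5 and at 8.52, 8.64, 8.26, 8.04 and 8.63 in control mice 1 to 5. Amygdala samples lay between 7.68 and 8.36 in PianpKO mice and between 7.87 and 8.19 in control mice, and cortical samples between 8.03 and 8.43 in PianpKO mice and between 8.07 and 8.42 in control mice. Hypothalamic samples stood at 7.51, 7.74, 7.79, 7.54 and 7.40 in PianpKO mice and at 6.77, 7.60, 7.18, 7.24 and 7.72 in control mice. Every hippocampal sample exceeded every hypothalamic sample. Hippocampus minus hypothalamus was 0.92 ± 0.13 in PianpKO mice and 1.11 ± 0.13 in control mice, a 1.90-fold and a 2.17-fold difference (limma, adjusted p = 1.27e-06 and 3.12e-08). Hippocampus minus cortex was 0.24 (95% interval -0.01 to 0.50) in PianpKO mice and 0.15 (-0.11 to 0.41) in control mice and was not called. The hippocampus exceeded the amygdala by 0.47 in PianpKO mice and 0.41 in control mice (limma, adjusted p = 0.00954 and 0.0390). The first of these calls was lost without PianpKO mouse 1 (0.41, adjusted p = 0.0881). The second was lost without control mouse 1, 2, 3 or 5 (0.34, 0.41, 0.43 and 0.38, adjusted p = 0.153, 0.0999, 0.0778 and 0.128) and in the fits without PianpKO mouse 1 or 2 (0.41 in both, adjusted p = 0.0524 and 0.0535). Amygdala minus hypothalamus was 0.45 in PianpKO mice and 0.70 in control mice (limma, adjusted p = 0.0233 and 0.000608), and the PianpKO call was lost without PianpKO mouse 1, 2, 4 or 5 (0.47, 0.45, 0.42 and 0.32, adjusted p = 0.0641, 0.0949, 0.120 and 0.297).

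**Figure D2:**
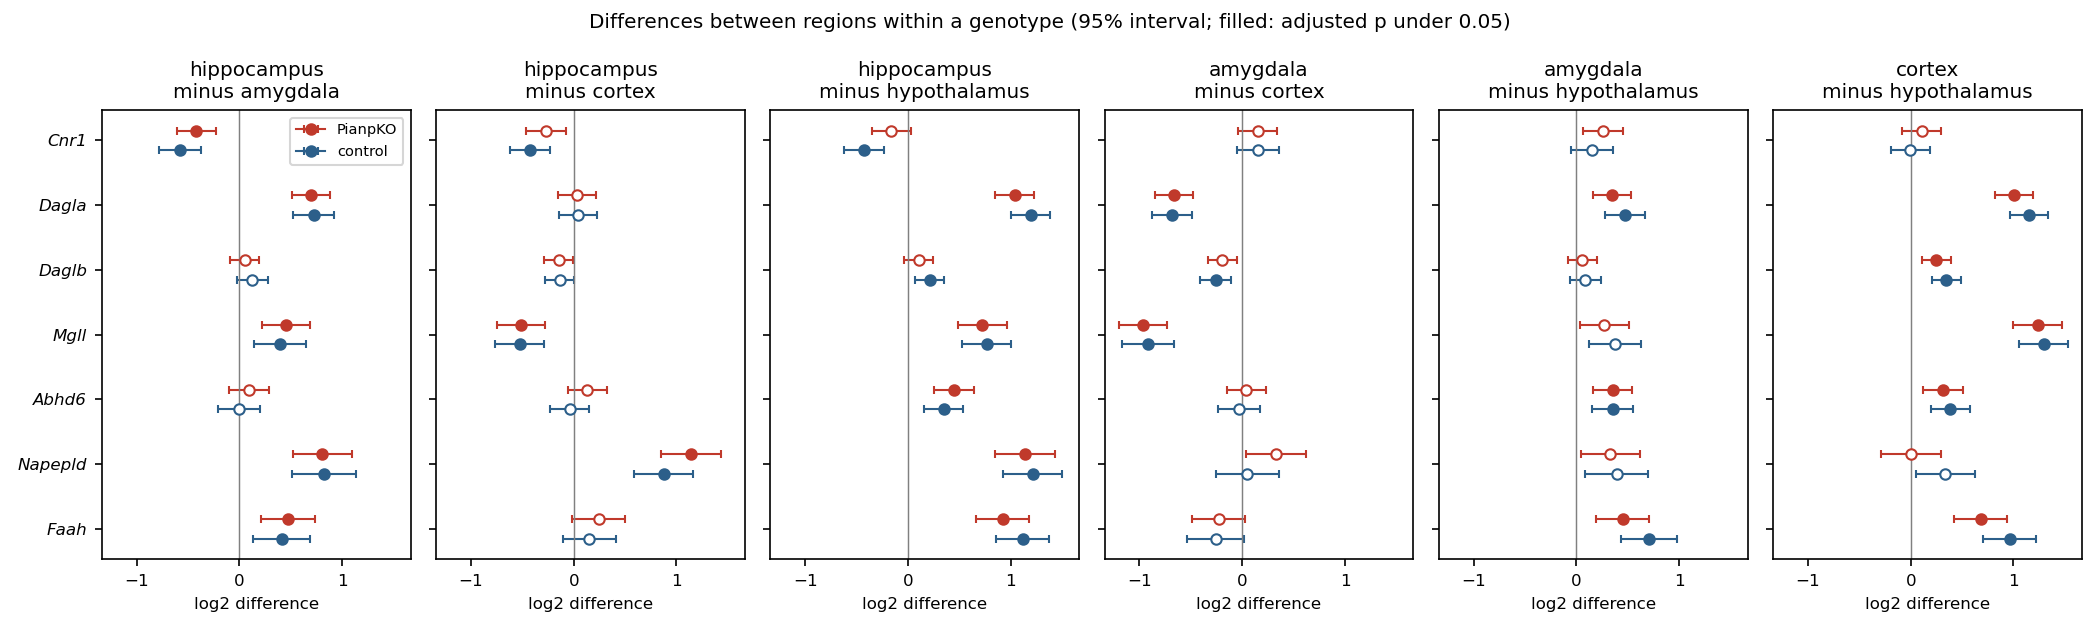
Log2 differences between regions (x axis) for the 7 genes (y axis), 1 panel per pair of regions, with PianpKO mice above control mice; points are limma estimates, bars are 95% intervals and filled points passed the adjusted threshold of 0.05. Cortex minus hypothalamus reaches 1.24 in PianpKO mice and 1.29 in control mice for Mgll, and only Cnr1 is lower in the hippocampus than in the hypothalamus.

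Counted over the 7 genes, the remaining pairs of regions were as follows. Cortex and hypothalamus differed in 5 genes in PianpKO mice and in 5 genes in control mice (*Dagla*, *Daglb*, *Mgll*, *Faah* and *Abhd6*, all higher in the cortex), against 20.4% and 25.5% of all probe sets for the same groups. Hippocampus and amygdala differed in 5 genes in each genotype (*Dagla*, *Mgll*, *Faah* and *Napepld* higher and *Cnr1* lower in the hippocampus), against 11.4% of all probe sets in PianpKO mice and 12.9% in control mice, with 3 genes in PianpKO mice without PianpKO mouse 1 and 3 in control mice without control mouse 1, 2, 3 or 5. Amygdala and hypothalamus differed in 3 genes in each genotype (*Dagla*, *Faah* and *Abhd6*, higher in the amygdala), against 7.01% in PianpKO mice and 9.29% in control mice. In PianpKO mice this count was 0 without PianpKO mouse 1, 4 or 5 and 1 without PianpKO mouse 2. Hippocampus and cortex differed in 2 genes in PianpKO mice (*Mgll* and *Napepld*) and in 3 in control mice (these and *Cnr1*), against 14.6% of all probe sets in PianpKO mice and 16.8% in control mice. Amygdala and cortex differed in 2 genes in PianpKO mice (*Dagla* and *Mgll*) and in 3 in control mice (these and *Daglb*), against 14.7% in PianpKO mice and 12.3% in control mice. Whether a difference between regions itself differed between genotypes was tested in 1 model and passed for 0 of 7 genes (limma, F test, unadjusted p between 0.274 and 0.941), against 0% of all probe sets after adjustment and 5.15% at an unadjusted p under 0.05.

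No called difference between PianpKO and control mice was found for the 7 genes. PianpKO minus control passed the adjusted threshold for 0 of 7 genes in the hippocampus, amygdala, cortex and hypothalamus, where 0.00393%, 0.00787%, 0.0157% and 0.00393% of all probe sets did (limma). At an unadjusted p under 0.05 the count was also 0 of 7 in each region, against 5.08%, 8.07%, 11.2% and 5.55% of all probe sets. Median differences of the 7 genes were 0.08 in the hippocampus, 0.03 in the amygdala, 0.01 in the cortex and 0.15 in the hypothalamus, and -0.00 in each region over all probe sets. In the hippocampus all 7 genes were above 0, as were 12708 of 25429 probe sets.

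**Figure D3:**
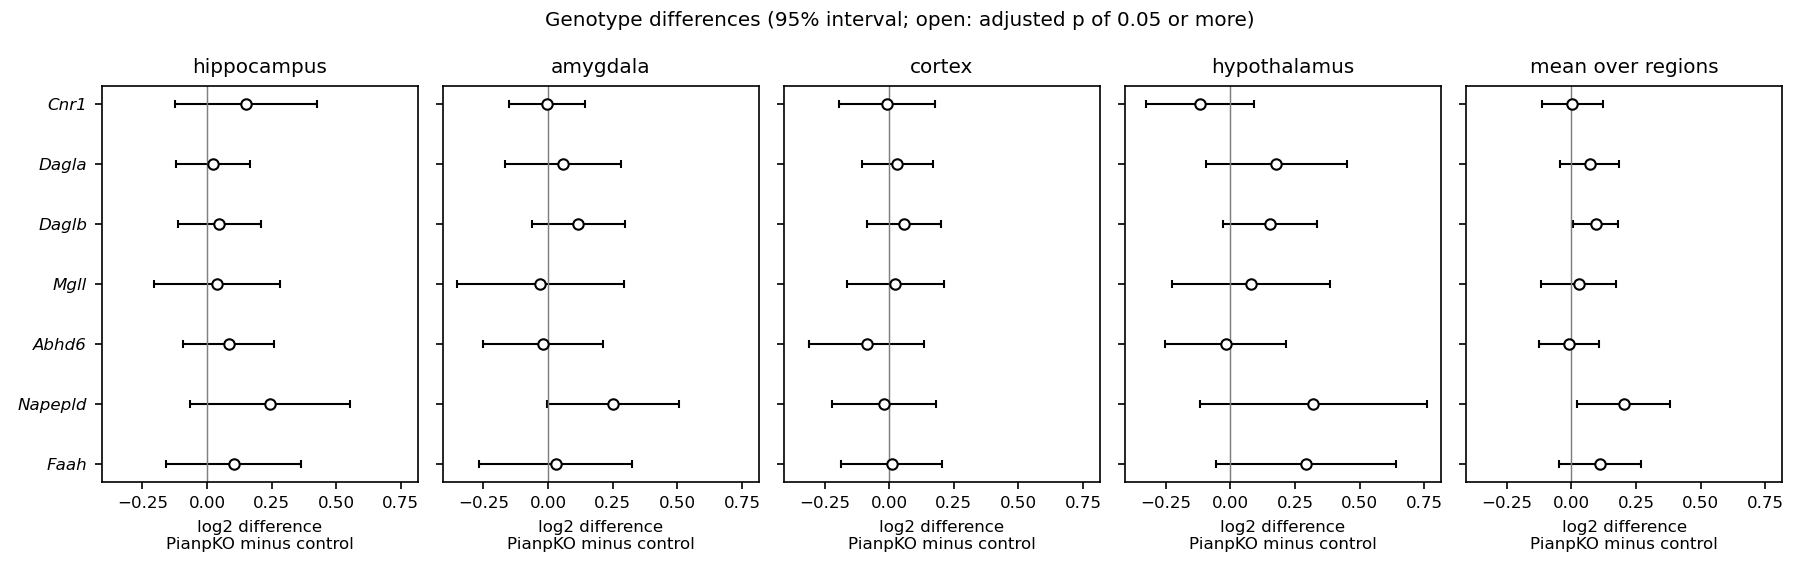
Log2 difference of PianpKO minus control (x axis) for the 7 genes (y axis) in each region and as the mean over regions; points are limma estimates, bars are 95% intervals, and open points did not pass the adjusted threshold of 0.05. All points are open, and the widest intervals are those of Napepld in the hypothalamus (-0.12 to 0.76) and Faah in the hypothalamus (-0.05 to 0.64).

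The receptor gene *Cnr1* averaged 8.03 ± 0.08 in PianpKO amygdala and 8.04 ± 0.07 in control amygdala (SD, n = 5 and 4), and its difference of -0.00 had a 95% interval of -0.15 to 0.14. In the cortex the difference was -0.01 (-0.19 to 0.18), in the hippocampus 0.15 (-0.12 to 0.42) and in the hypothalamus -0.12 (-0.32 to 0.09). Among the 2-AG enzymes, the cortex had *Dagla* at 0.03 (-0.11 to 0.17), *Daglb* at 0.06 (-0.09 to 0.20), *Mgll* at 0.02 (-0.16 to 0.21) and *Abhd6* at -0.09 (-0.31 to 0.13). In the other regions the estimates of these 4 genes lay between -0.03 for *Mgll* in the amygdala and 0.18 for *Dagla* in the hypothalamus. The *Faah* estimate was 0.10 (-0.16 to 0.36) in the hippocampus, 0.03 (-0.27 to 0.32) in the amygdala and 0.01 (-0.19 to 0.20) in the cortex. *Mgll* was more variable in PianpKO amygdala (SD 0.33, from 7.77 to 8.57) than in control amygdala (SD 0.06, from 8.18 to 8.31), and the spread itself was not tested. Intervals this wide leave small changes undetected, and the design with 5 mice a group limits their precision.

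*Napepld* had the highest estimate of the 7 genes in every region but the cortex, without a call. PianpKO minus control was 0.24 (95% interval -0.07 to 0.55) in the hippocampus, 0.25 (-0.00 to 0.51) in the amygdala, -0.02 (-0.22 to 0.18) in the cortex and 0.32 (-0.12 to 0.76) in the hypothalamus. Amygdala samples stood at 7.97, 8.31, 8.30, 8.26 and 8.56 in PianpKO mice 1 to 5 and at 7.81, 8.01, 8.19 and 8.11 in control mice 1, 2, 3 and 5. PianpKO mice 2 to 5 were above all 4 control mice and PianpKO mouse 1 was not (limma, unadjusted p = 0.0526, adjusted p = 0.619). Mean levels of the 5 measured hippocampus markers in the amygdala punches lay between 6.64 and 6.75 in PianpKO mice and between 6.36 and 6.63 in control mice, with 5 of 5 markers higher by sign, 1 at an unadjusted p under 0.05 and 0 past the adjusted threshold (limma), and their part in the amygdala difference was not tested. Of these 5, *Wfs1* was itself higher in the amygdala (9.92) than in the hippocampus (9.01) by the mean over all samples of a region. In the hippocampus, control mice 3 and 4, at 8.63 and 8.50, were the lowest for *Napepld*, and they also had the lowest hippocampus marker means of their group, 7.43 and 7.57, against 7.89 to 8.01 in control mice 1, 2 and 5. PianpKO mouse 3 had a marker mean of 7.35 and *Napepld* at 9.11. Without control mouse 4, the hippocampal difference was 0.16. The part of the markers in the result was not tested. Averaged over the 4 regions, *Napepld* was at 0.20 (0.02 to 0.38) and *Daglb* at 0.09 (0.01 to 0.18), and their unadjusted p of 0.0278 and 0.0335 became 0.282 and 0.30 after adjustment over all probe sets (limma). They were the 2 of 7 genes with an unadjusted p under 0.05 in this mean, against 14.6% of all probe sets, and 0 of 7 passed the adjusted threshold, against 0.319%.

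In the hypothalamus, 1 control sample was below all the others for 5 of the 7 genes, and the differences for these 5 genes were closer to 0 without it. Hypothalamic *Dagla*, *Daglb*, *Mgll*, *Napepld* and *Faah* were at 7.30, 7.72, 7.36, 6.86 and 6.77 in control mouse 1, the lowest of the 10 hypothalamic values for each of the 5 genes. The next lowest values were 7.82 for *Dagla*, 7.79 for *Daglb*, 7.77 for *Mgll*, 7.54 for *Napepld* and 7.18 for *Faah*. The same sample had a mean of 7.91 over 5 glutamate neuron markers, against 9.31 to 9.74 in the PianpKO samples and 8.92 to 9.56 in the other control samples, and the lowest mean correlation with its group of all 39 arrays (0.991). Its mean over 6 markers of cholecystokinin interneurons was 7.06, against 7.50 to 7.71 in PianpKO samples and 7.22 to 7.70 in the other control samples. The part of these markers was not tested. With control mouse 1 the hypothalamic differences were 0.18 for *Dagla*, 0.15 for *Daglb*, 0.08 for *Mgll*, 0.32 for *Napepld* and 0.29 for *Faah*. Without it they were 0.05, 0.11, -0.04, 0.13 and 0.16 for the same genes, with adjusted p between 0.949 and 0.979 (limma). *Cnr1* and *Abhd6* did not share the pattern. Hypothalamic *Cnr1* was at 7.67 in control mouse 1, above PianpKO mice 2 and 5 at 7.57 and 7.62, and *Abhd6* was at 7.80, above PianpKO mouse 1 at 7.68. Their differences were -0.12 and -0.02 with control mouse 1 and -0.17 and -0.08 without it. The hypothalamic means of the 7 measured striatal projection neuron markers lay between 8.40 and 8.90 in PianpKO samples and between 8.77 and 9.62 in control samples, and their part in these differences was not tested.

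**Figure D4:**
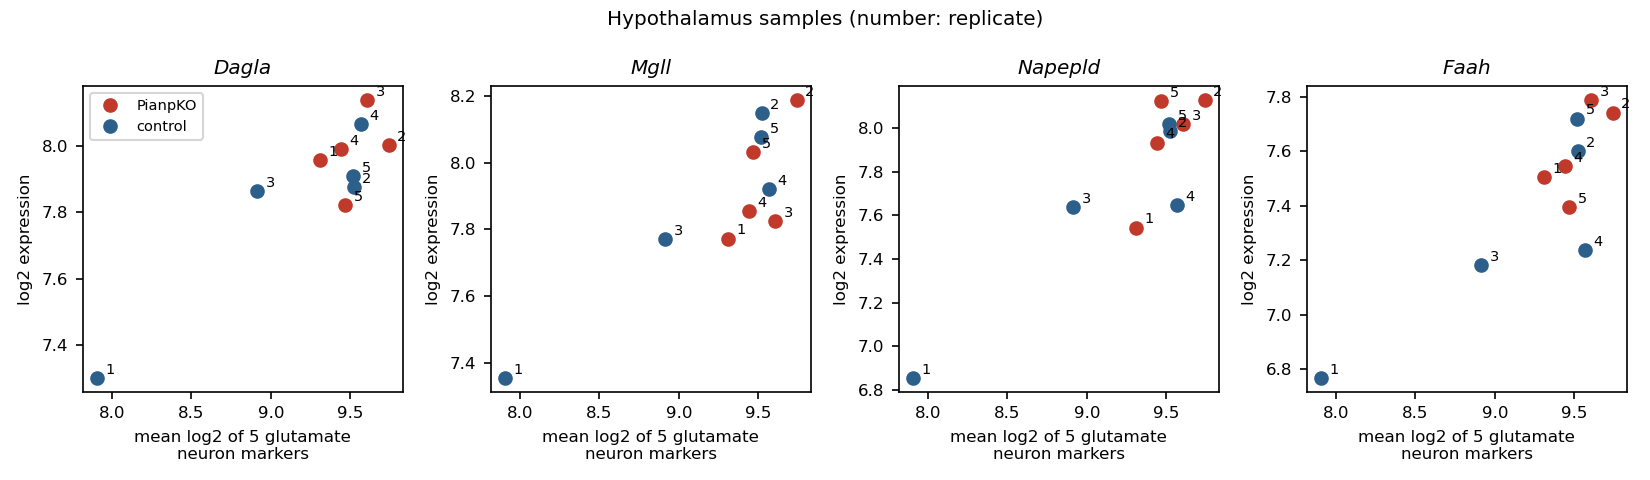
Log2 expression of Dagla, Mgll, Napepld and Faah (y axes) against the mean log2 level of 5 glutamate neuron markers (x axis) in the 10 hypothalamus samples, with replicate numbers beside the points. Control mouse 1 is at 7.91 on the marker axis and lowest for all 4 genes, and the other 9 samples lie between 8.92 and 9.74 on that axis.

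The wider endocannabinoid pathway was followed in 34 further genes, of which 31 were analysed here. Among the Gq-coupled receptors that can start 2-AG synthesis, the muscarinic receptor genes were low in the hypothalamus. Cortical *Chrm1* averaged 8.67 ± 0.06 in PianpKO mice and 8.64 ± 0.07 in control mice, and hypothalamic *Chrm1* 7.74 ± 0.14 in PianpKO mice and 7.66 ± 0.44 in control mice (SD, n = 5 each). In control mice, cortex minus hypothalamus was 0.98 for *Chrm1* and 1.25 for *Chrm3* (limma, adjusted p = 1.47e-07 and 2.77e-10). The other measured gene of this group, *Grm5*, was not lowest in the hypothalamus. Its control means were 9.49 there, 9.36 for cortex, 9.41 for hippocampus and 9.75 for amygdala. *Ptgs2*, the cyclooxygenase gene whose product oxidizes 2-AG, was higher in the hippocampus than in the hypothalamus by 1.43 in control mice (limma, adjusted p = 2.63e-05). *Plcb4*, a phospholipase C gene, was higher in the hippocampus than in the amygdala by 1.02 (limma, adjusted p = 1.81e-06), while *Plcb1* was lower by a log2 difference of -0.45 (limma, adjusted p = 0.00012), both in control mice. Of the N-acylethanolamine enzymes beside *Napepld*, *Abhd4* exceeded the amygdala level in the hippocampus by 0.49 and *Plaat3* by 0.31 in control mice (limma, adjusted p = 0.0015 and 0.0272). *Plaat1* went the other way, with control means of 7.21 in the hippocampus and 7.60 in the amygdala. *Naaa* (8.29 and 8.34) and *Pla2g4e* (5.26 and 5.28) were also lower in the hippocampus by mean, and the other listed enzymes were higher. *Fabp7*, a fatty acid binding protein gene of astrocytes and radial glia, was lower in the cortex than in the hypothalamus by a log2 difference of -1.58 in control mice (limma, adjusted p = 5.81e-08). *Gprasp1*, whose product sorts internalized CB1 toward degradation, was lower in the hippocampus than in the hypothalamus by -0.52 (limma, adjusted p = 9.6e-07), the same direction as *Cnr1*. The other genes listed as CB1 partners, *Cnrip1*, *Sgip1* and *Necab1*, went the other way by mean. They stood at 8.87, 9.73 and 10.39 in control hippocampus and at 8.69, 9.61 and 10.37 in control hypothalamus. Counted over the 31 genes in control mice, 10 differed between hippocampus and hypothalamus, 7 higher and 3 lower, against 14.9% of all probe sets, with a median difference of 0.03.

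Between genotypes, 0 of the 31 further genes passed the adjusted threshold in a single region, and 1, *Fabp5*, passed in the mean over regions. Of all probe sets, between 0.00393% and 0.0157% passed it in a single region and 0.319% in the mean over regions. *Fabp5* encodes an intracellular carrier of anandamide and other fatty acids. Its level was 4.24 to 4.69 in PianpKO amygdala and 5.0 to 5.07 in control amygdala, and the mean difference over regions was -0.43 ± 0.07 (limma, adjusted p = 0.00173). These levels lie close to the median probe set (4.62). At an unadjusted p under 0.05, the 31 genes gave 3 in the hippocampus, 2 in the amygdala, 1 in the cortex and 1 in the hypothalamus, all lower in PianpKO mice, against 5.08%, 8.07%, 11.2% and 5.55% of all probe sets, and *Fabp5* was among them in each region. Beside it, *Plcb1* was lower in PianpKO amygdala by a log2 difference of -0.18, and *Cnr2* and *Gpr119* were lower in PianpKO hippocampus by -0.21 and -0.13 (limma, adjusted p = 0.578, 0.958 and 0.958). *Cnr2*, the gene of the second cannabinoid receptor, which is mostly found on immune cells, averaged 3.79 in PianpKO hippocampus and 4.0 in control hippocampus, below the median probe set.

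The probe sets that most resembled each gene over the 39 samples were found among 12291 named probe sets brighter than the median, and Pearson's r is given as a description, since the samples share mice and regions. *Dagla* was closest to *Adcy1* (r = 0.973), a calmodulin-stimulated adenylyl cyclase gene, and then to *Grin2a* and *Sort1*. *Mgll* was closest to *Tmem178* (0.954), *Lrrc8b* and *Dusp7*. *Napepld* was closest to *Lrrtm1* (0.909), which encodes a postsynaptic adhesion protein, and then to *Fam163a* and *Cnih2*, an AMPA receptor auxiliary subunit gene. *Faah* was closest to *Tcf4* (0.940), *Neurod6* and *Anxa11*. The closest genes reached lower values for *Cnr1* (*Gda* at 0.853, *Efnb2* and *Atp2b4*), *Abhd6* (*Chn1* at 0.842, *Camk1d* and *Gal3st3*) and *Daglb* (*Kcnk4* at 0.819, *St8sia5* and *Nat8l*).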

How the data were processed

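RNA of 39 brain punches was hybridised to Affymetrix whole-transcript arrays. The authors annotated them with a custom Entrez-based chip definition and applied quantile normalization, and the submitters' processing notes name RMA. The deposited values are log2 expression per probe set, from 2.75 to 13.91, and array medians ran from 4.62305 to 4.62315. The platform annotation named 24675 probe sets and left 754 unnamed here; coordinates and promoter windows are those of RefSeq for GRCm38.p6. All 39 columns were used; depth does not apply to arrays, and the number of mice limits the precision.

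Genotypes were compared within each region with limma 3.58.1 (lmFit and eBayes, R 4.3.3). Regions, the mean over regions and the interaction were fitted over all 8 groups with each mouse entered as a random block through duplicateCorrelation (statmod 1.5.0), at a consensus correlation of 0.106. The Benjamini-Hochberg adjustment covered 25429 probe sets, and calls were made at 0.05. The labels give a biological replicate number that recurs across regions, and do not say that it marks the same mouse. That it does was assumed for the block and for leaving out mice. Deviations from the group means correlated with a median r of 0.190 between 2 regions of the same mouse. The median for different mice of a genotype was -0.05. Centring on group means ties this value to the first, so it is no independent baseline. The study's methods name an ANOVA without the groups that entered, and it was run as an alternative. The scripts were tested on simulated data. The members and the gene lists were chosen with earlier results of these data known. Named are all members, and further pathway genes by size of regional difference or by genotype test. Alternatives were other scalings, a filter on dim probe sets, other variance priors, array weights, other treatments of the mouse, and leaving out each mouse.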

Additional observations from a re-analysis of the deposited data

Results flagged for a closer look

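Each gene was examined in each of the 8 groups for a lowest or highest sample that stood apart from the others by Dixon's test. Of 56 groups, 3 had such a sample, and chance gives about 1 in 20. Dagla was at 7.30 in control hypothalamus mouse 1, with the next value of its group at 7.86. Faah was at 8.27 in PianpKO hippocampus mouse 3, with the next value at 8.55. Napepld was at 7.64 in PianpKO cortex mouse 1, with the next value at 7.96.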

How the results depend on the processing

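The count of called genotype differences stayed at 0 of 7 in each region, in the mean over regions and in the interaction under all alternatives run. The lowest adjusted p of any genotype difference was 0.0758 (limma), for Daglb in the mean over regions without control mouse 2. Of 658 alternative values of genotype differences, 45 changed sign, all of them uncalled. Of 1344 alternative values of differences between regions, 37 lost and 23 gained a call, 15 uncalled ones changed sign and no called one did. For hippocampus minus amygdala in control mice, the fit with no replicate block, in which all samples count as unrelated, called 3 genes in place of 5 (Mgll at an adjusted p of 0.0669 and Faah at 0.0733), and leaving out each mouse gave 3 to 5. For the same pair in PianpKO mice, leaving out each mouse gave 3 to 5, and for amygdala minus hypothalamus in PianpKO mice it gave 0 to 4, with 0 without PianpKO mouse 1, 4 or 5. Without the block, Daglb also lost its call for hippocampus minus hypothalamus in control mice (adjusted p = 0.0540). The causes were not tested. Same-numbered mice of the genotypes are different mice, and the labels name no batch behind a number. Within 1 region, their deviations had a median correlation of 0.115, with 10 of 19 pairs over 0.1. The matching value for different numbers across genotypes was not computed, so this median has no baseline. Whether a number marks a shared batch was not tested. The replicate block across genotypes left 0 of 7 genes called.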
